A study of Homo sapiens with 54 samples.

Results

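The progesterone receptor (PR) occupied 6103 regions of the genome both with vehicle and after R5020 in T47D cells, out of 6662 regions called with vehicle and 518471 regions in all 16 peak lists of the series on chromosomes 1 to 22 and X. A region counted as retained when the deposited vehicle PR list held it and it shared at least 1 bp with a region of the R5020 PR list. The retained sites were therefore chosen by measured values, the PR calls of both lists, and PR folds, widths and summits at these sites are given as a description. T47D is an established human breast cancer line that carries both the estrogen receptor and PR. The cells grew in minimal Eagle's medium with 5% serum and insulin and received ethanol (vehicle) or R5020, a synthetic progestin, for 1 h before brief formalin fixation and chromatin immunoprecipitation with sequencing (ChIP-seq). Vehicle here means without added progestin, since the labels name serum in the medium and do not say that it was stripped of hormones. All groups are of this 1 line with no modification named, and they differ only in the agent and in the antibody: PR, H3K27Ac, Maf1, Brf1, POLR3A, POLR3C, POLR3G or POLR3GL.

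The labels list 54 libraries in 18 groups of 3, of which 6 libraries are inputs, and the deposited peak lists number 1 per antibody and treatment. No list carries a replicate number or a read count. The depth behind each value is unknown, there is no spread between replicates, and no difference below has a test across samples. Intervals are 95% Wilson intervals for a share and Newcombe intervals for a difference of shares, and they cover counting error of regions only, which are not independent of each other. The labels conflict for 4 libraries whose titles name R5020 while their tag names ethanol: replicates 1 and 2 of POLR3C and replicate 1 each of POLR3G and POLR3GL. Groups follow the titles, and the lists do not let these libraries be left out. The labelled cell type was checked by H3K27Ac in or within 1 kb of marker genes: all 10 luminal epithelial markers carried it in both treatments and all 10 also had a retained PR site, while 3 of 5 basal and myoepithelial markers carried it, KRT5 and KRT14 not, and 2 of the 5 had a retained PR site. H3K27Ac also lay at 3 of 4 fibroblast, 2 of 4 endothelial and 3 of 4 leukocyte markers with vehicle, and what that means for the sites below was not tested.

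PR is a ligand-activated transcription factor of the steroid receptor family. Without ligand it is held by HSP90 and its co-chaperones, and with progestin it binds DNA as a dimer, classically at a palindrome of hexamer half-sites that the glucocorticoid and androgen receptors also recognise. H3K27Ac, acetylated lysine 27 of histone H3, marks active promoters and enhancers. Maf1 is the conserved repressor of RNA polymerase III, the enzyme that makes tRNAs and other small RNAs. Brf1 is a subunit of the initiation factor TFIIIB, POLR3A is the largest subunit of the polymerase, POLR3C is another subunit, and POLR3G and POLR3GL are alternative forms of 1 subunit.

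Sequence could be read at the retained sites that cover a start of transcription, from a RefSeq table of GRCh38.p14 that holds 250 bases before to 50 after each start. Starts of 1707 promoters of 1556 genes lay in a retained site. The PR palindrome (GNACA and TGTNC separated by 3 bases, read on both strands) was found in 5 of these promoters, at 4 sites, and its position relative to the summits of the PR regions is the reason for printing them. The 3 sites with a match upstream of the start are shown 5′ to 3′ on the strand of the gene, with the palindrome in capitals.
MYNN: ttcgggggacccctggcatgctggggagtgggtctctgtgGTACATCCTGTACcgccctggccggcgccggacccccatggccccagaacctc
RHOT2: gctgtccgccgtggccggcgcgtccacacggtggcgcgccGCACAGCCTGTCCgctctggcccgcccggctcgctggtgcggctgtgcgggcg
MIRLET7IHG: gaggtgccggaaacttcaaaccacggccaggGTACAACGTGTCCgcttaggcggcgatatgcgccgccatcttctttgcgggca
The MYNN stretch is chr3:169773231-169773323 on the plus strand, in the promoter of a zinc finger protein gene. The RHOT2 stretch is chr16:667977-668069 on the plus strand, before a gene for a mitochondrial GTPase. The MIRLET7IHG stretch is chr12:62602493-62602576 on the plus strand, before the host transcript of the microRNA let-7i.

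At MYNN the palindrome lay 139 bp from the vehicle PR summit and 4 bp from the R5020 summit. At MIRLET7IHG these distances were 464 bp and 0 bp, and at RHOT2, whose 2 listed promoters share a site, 90 bp and 16 bp. The fourth site, at SMARCD2, a subunit gene of the SWI/SNF remodelling complex, had its match 2 bp from both summits. In all 4 sites the R5020 summit was within 50 bp of the palindrome, and the vehicle summit was within 50 bp at 1. The folds differed widely between these sites. MYNN had a vehicle PR fold of 2.92 and an R5020 fold of 14.8, MIRLET7IHG 2.35 and 17.0, SMARCD2 6.02 and 34.5, and RHOT2 2.69 and 2.33. With 4 sites this is a description of each and no estimate for the class. Among starts in PR regions seen only after R5020, 27 of 44 promoters with the palindrome had it within 50 bp of the R5020 summit (61.4%, 46.6 to 74.3), against 33.8% for the half-site AGAACA and 22.9% for the SP and KLF motif GGGCGG measured in the same way.

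The estrogen receptor palindrome (GGTCA and TGACC separated by 3 bases, both strands) was in 4 promoters at retained sites, 0.234% against 0.0572% of all 34961 promoters. The site of highest vehicle −log10 q among them was at the long non-coding RNA LINC02130, and it is shown because here both PR summits fell close to the motif. The stretch is chr16:14370355-14370447 on the minus strand, with the motif in capitals.
LINC02130: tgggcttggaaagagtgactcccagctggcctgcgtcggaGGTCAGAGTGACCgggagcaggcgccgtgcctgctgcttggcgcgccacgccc
The motif lay 6 bp from the vehicle summit and 5 bp from the R5020 summit, and the PR folds were 9.55 and 11.4. At the other 2 sites with this motif (ZNF669, whose promoter is shared with FLJ39095, and SLC35B2) it lay 119 bp from the vehicle summit and 238 or 242 bp from the R5020 summit. Both summits were thus within 50 bp of the estrogen receptor motif at 1 of these 3 sites.

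The commonest motif at these starts was GGGCGG, the core bound by the SP and KLF zinc finger proteins. It occurred in 81.7% of promoters at retained sites (79.8 to 83.4), against 45.0% of all promoters, 64.4% of those at hormone-only PR sites and 66.4% of those in vehicle H3K27Ac without any PR region, a set added after the data were seen. At lost sites it was in 56 of 64 promoters (87.5%, 77.2 to 93.5), which had a median GC content of 70.2% and 30 CG dinucleotides, and the intervals of retained and lost sites overlap. The example printed is SERPINA1, the gene of the protease inhibitor alpha-1-antitrypsin, the GGGCGG-bearing promoter in the site of highest vehicle −log10 q, with a vehicle fold of 28.6 and an R5020 fold of 44.8. The stretch is chr14:94390694-94390779 on the minus strand, and the capitals mark the motif on either strand.
SERPINA1: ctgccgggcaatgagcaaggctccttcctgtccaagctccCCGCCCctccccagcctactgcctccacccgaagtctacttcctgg
Its match lay 140 bp from the vehicle summit and 120 bp from the R5020 summit.

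The opposite held for AGAACA, the single half-site of the receptor palindrome, which was in 6.33% of promoters at retained sites (5.27 to 7.58), 14.8% of all promoters, 12.2% of those at hormone-only sites and 7.46% of those with H3K27Ac and no PR region. At lost sites it was in 2 of 64 promoters (0.861 to 10.7%). Retained promoters whose R5020 region was in the top quintile of its list had the half-site in 9.57% (7.20 to 12.6) and the others in 5.13% (4.04 to 6.50). The full palindrome was in 0.293% of promoters at retained sites, 0.608% at hormone-only sites and 0.392% of all. Promoters at retained sites had a median GC content of 69.7% and a median of 31 CG dinucleotides, against 64.3% and 25 at hormone-only sites and 58.7% and 14 over all promoters. The ETS motif CCGGAAG was in 17.9% (all promoters 10.3%), the E-box CACGTG in 12.0% (7.27%) and the TATA box TATAAA in 5.68% (11.5%). The remaining motifs were the forkhead motif TGTTTAC (2.40% against 3.42% of all), TGANTCA of AP-1 (4.51% against 7.68%), AGATAAG of the GATA factors (0.762% against 2.67%), TGACGTCA of CREB and ATF (2.28% against 1.85%), CCAAT of NF-Y (29.9% against 34.6%) and the NRF1 palindrome (1.93% against 1.24%), all read on both strands. GGGCGG can lie inside a longer CG-rich run, and matches of different motifs may overlap. Base composition moved with these shares, and its part in them was not tested.

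Of the 6662 vehicle PR regions, 91.6% were retained. The share depended on the overlap asked for, and was 31.6% at a mutual overlap of 50%. Most retained sites met 1 R5020 region (6016), 86 met 2 and 1 met 3, and 4413 lay wholly inside the R5020 region. The shared stretch had a median of 278 bp. Just inside the rule were a site in SNX10 that shared 1 bp with its R5020 region, a site at ADNP-AS1 that shared 2 bp and a site near SLC2A4RG that shared 2 bp. Just outside it were a vehicle region at CTDNEP1 with a gap of 4 bp, one on chromosome 8 with 5 bp and one at GLT8D1 with 6 bp. The 559 vehicle regions without an R5020 partner, called lost below, had a median gap of 1943 bp, and 220 of them (39.4%) lay within 1 kb of an R5020 PR region.

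By fold, retained sites had a median percentile of 52.2 in the vehicle PR list, 91.6% of which they make up. In the R5020 PR list their median percentile was 77.4. Fold is the authors' enrichment value per region, and the 2 lists were made separately, so it ranks sites within a list and is not subtracted between lists. The vehicle fold ranged from 1.41 to 57.4 with a median of 4.08, and the R5020 fold of the same sites ranged from 1.23 to 56.6 with a median of 12.0. The R5020 regions at retained sites had a median fold of 11.1, against 5.79 for the 167221 hormone-only PR regions. Of the retained sites, 47.7% had an R5020 region in the top quintile of that list and 11.4% in its bottom quintile. Vehicle and R5020 folds ranked sites similarly only in part, with a Spearman rank correlation of 0.34 across 6103 sites that share both lists. The median R5020 percentile was 58.4 for sites in the lowest quintile of vehicle folds, 64.5, 69.1 and 81.7 in the next 3 quintiles, and 92.3 in the highest.

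The 12 sites of highest vehicle −log10 q all had H3K27Ac and Maf1 regions in both treatments. The first was chr19:40920590-40922093, 2172 bp from the cytochrome P450 pseudogene CYP2B7P, with a vehicle fold of 57.4 and an R5020 fold of 56.6. The third lay within RARA, the retinoic acid receptor alpha gene, at chr17:40321702-40322809 with folds of 49.1 and 42.2 and summits 1 bp apart. Others were at chr17:41415242-41416516 in the keratin gene cluster near KRT37 (48.9 and 51.7), at chr9:33220876-33222262, 17905 bp from SPINK4 (52.5 and 55.7), in WDR45B at chr17:82613779-82614786 (43.6 and 48.0), at chr6:30751341-30752080 near the stress gene IER3 (44.4 and 45.4), and in PHACTR1 at chr6:12844015-12844908 (47.2 and 48.9). Of the rest, 3 were on chromosome 8. High vehicle occupancy in the 12 sites went with a high R5020 fold, between 31.1 and 56.6.

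High R5020 occupancy, in contrast, was also found over weak vehicle sites. The top −log10 q of the R5020 list was shared by 174 regions, and 60 retained sites lay under one of them, 40 of these also at the top fold of 56.6. Ordered by position, the first 5 were in ZBTB40 (vehicle fold 21.2), at chr1:31511167-31511481 (3.89), at chr1:31842812-31843336 (18.7), in PTP4A2, a phosphatase gene (2.51), and near ZMYM4 (4.41). The vehicle folds at these 5 sites spanned from 2.51 to 21.2, and the site near CYP2B7P, with a vehicle fold of 57.4, shared the same top R5020 values.

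Summits mostly stayed inside the region. The vehicle summit fell inside the R5020 region at 96.7% of retained sites. The 2 summits were a median of 95 bp apart, within 25 bp at 19.7% of sites, within 100 bp at 51.5% and over 500 bp apart at 14.0%. Summits were within 100 bp at 41.6% of the sites in the lowest quintile of vehicle folds and at 62.5% in the highest quintile.

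Retained sites were found at start sites more often than hormone-only PR sites. Start sites of chromosome 8 were not used here. Of the 5744 other sites, 2190 had their vehicle summit within 1 kb of a start (38.1%, 36.9 to 39.4), 1662 within 250 bp, and 2610 over 10 kb away. The share within 1 kb was 36.9% over all vehicle PR regions and 8.75% over all R5020 PR regions. Measured at the R5020 summit it was 36.7% for R5020 regions at retained sites and 7.77% for hormone-only regions, a difference of 29.0 percentage points (27.7 to 30.2). Counting both ends of protein-coding genes, 37.4% of sites lay within 1 kb of one. Start-proximal members became rarer with vehicle fold, from 53.2% in the lowest quintile through 51.0%, 45.1% and 30.3% to 14.6% in the highest.

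**Figure D1:**
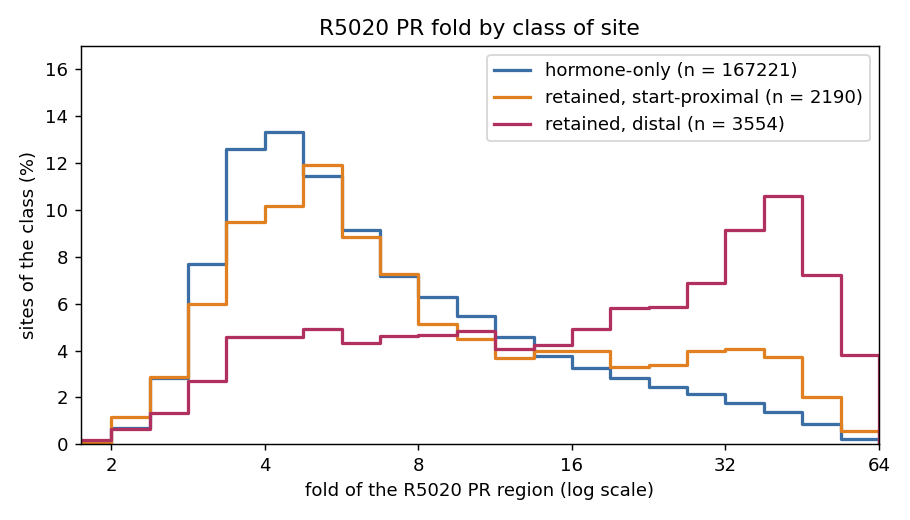
Distribution of the R5020 PR fold (log axis) as the percentage of sites in each class, for hormone-only regions, start-proximal retained sites and distal retained sites. Start-proximal retained sites have a median of 6.72 and lie close to the hormone-only regions (median 5.79), while distal retained sites have a median of 18.6.

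The start-proximal and the distal retained sites differed in PR occupancy after R5020, as the plot of R5020 folds by class shows. Start-proximal sites had a median R5020 fold of 6.72 (quartiles 4.39 and 16.0), and 29.0% were in the top quintile of the list. The 3554 distal sites had a median of 18.6 (7.17 and 35.7), and 58.8% were in the top quintile. With vehicle the medians were 3.73 and 4.46. Summits of the 2 treatments were within 100 bp at 41.3% of proximal and 58.1% of distal sites.

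**Figure D2:**
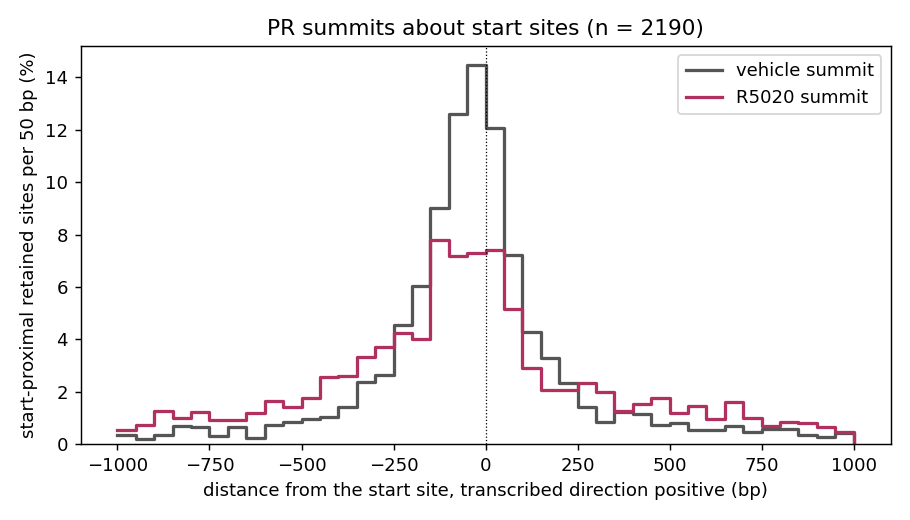
Position of PR summits relative to the nearest start site in the 2190 start-proximal retained sites, as the percentage of sites per 50 bp (x axis: bp, transcribed direction positive). Vehicle summits peak just upstream of the start, with 46.5% within 100 bp, and R5020 summits of the same sites are spread more widely, with 27.1% within 100 bp.

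At start-proximal sites the vehicle summit lay a median of 36 bp upstream of the start, and 60.1% of summits were upstream. The vehicle summit was within 100 bp of the start at 46.5% of sites (44.4 to 48.6) and the R5020 summit at 27.1% (25.3 to 29.0). The R5020 summit was farther from the start at 1491 sites and nearer at 693. These sites were selected by the vehicle summit. In the 2108 sites selected by an R5020 summit within 1 kb, the shares within 100 bp were 39.9% for vehicle (37.9 to 42.1) and 33.6% for R5020 (31.6 to 35.6), with the R5020 summit farther at 1171 and nearer at 932. The direction was the same under both selections and the size depended on the selection. Of retained sites with a start within 500 bp of the summit, 22.5% (20.7 to 24.4) had starts on both strands, as divergent promoters do, against 15.2% (14.4 to 16.0) of hormone-only sites and 21.3% (14.6 to 29.9) of lost sites.

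Retained sites lay almost throughout in acetylated chromatin. A vehicle H3K27Ac region overlapped 92.2% of them (91.5 to 92.8), where 26% of all R5020 PR regions had one, and an R5020 H3K27Ac region overlapped 89.4% (88.6 to 90.1), where the share over all R5020 PR regions was 28.7%. The vehicle PR list as a whole, of which 91.6% was retained, had similar shares of 89.6% and 86.5%. R5020 regions at retained sites carried vehicle H3K27Ac in 94.6% and hormone-only regions in 23.6%, 71.0 points apart (70.3 to 71.6). The regions at retained sites were wider (median 793 against 274 bp), so the summits were also compared: 84.1% against 19.0% of R5020 summits lay inside a vehicle H3K27Ac region. In the H3K27Ac lists themselves, regions at retained sites ranked high, with median fold percentiles of 91.9 with vehicle and 92.8 with R5020. Taken per PR site, by its highest H3K27Ac region, the medians were 93.3 and 94.2 at retained sites. At lost sites with H3K27Ac they were 88.9 and 88.9.

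**Figure D3:**
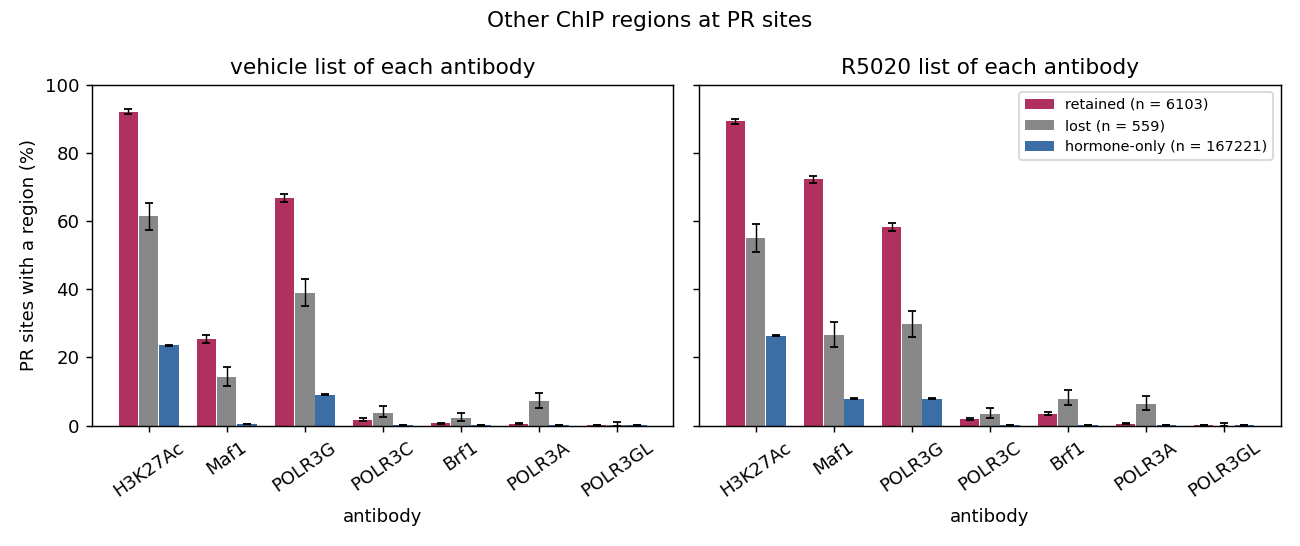
Percentage of retained, lost and hormone-only PR sites that overlap a region of each other antibody, in the vehicle lists (left) and the R5020 lists (right), with 95% Wilson intervals as error bars. H3K27Ac covers 92.2% of retained sites with vehicle, and Maf1 covers 25.4% with vehicle and 72.3% with R5020.

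Acetylation was present at most members in both treatments: 5374 sites had H3K27Ac with both, 252 with vehicle only, 81 with R5020 only and 396 with neither. The 252 vehicle-only sites were mostly distal, with 7.44% at starts against 42.4% of sites with H3K27Ac in both. An R5020 Maf1 region lay at 31.7% of them and at 77.2% of sites with H3K27Ac in both, while the median R5020 PR folds of these classes were 11.9 and 12.1. The 81 sites with H3K27Ac after R5020 only had a median R5020 PR fold of 23.7, and 66.7% of them were in the top quintile of the R5020 list. Examples from the gene lists were ESR1 and TFF1, with H3K27Ac at the PR site with vehicle only, and ZBTB16, with R5020 only.

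Seen from the H3K27Ac list, 97.2% of the 5121 vehicle H3K27Ac regions with a retained PR site were met again in the R5020 H3K27Ac list (96.8 to 97.7). The share was 85.1% for those with a hormone-only PR site alone and 54.8% for those with no PR region. The share also rose with the H3K27Ac fold: within the highest quintile of vehicle H3K27Ac folds the shares were 99.8%, 99.9% and 99.1%, and within the fourth quintile 89.0% (86.3 to 91.3), 90.1% (89.4 to 90.7) and 74.1% (73.2 to 74.9). In all 5 quintiles the intervals of regions with retained and with hormone-only sites overlapped.

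The retained sites of highest vehicle −log10 q without H3K27Ac in either treatment were a mixed set. The first was an 11920 bp region at chr21:8995713-9007632, with a vehicle fold of 22.8, Maf1 in both treatments and Brf1 with R5020. The next were at chr4:23708037-23709113 (32.3 with vehicle and 19.3 with R5020), in ATRNL1 (24.2 and 6.35) and in ARHGAP26 (17.3 and 3.53). The last 2 carried no Maf1 region in either treatment, and their summits were 6 and 5 bp apart. Chromosome 21 as a whole had the lowest retained share, 124 of its 183 vehicle PR regions (67.8%), where the other chromosomes ranged from 83.6% to 95.4%.

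Maf1 regions lay at 1548 retained sites with vehicle (25.4%, 24.3 to 26.5), where 1.35% of all R5020 PR regions had one, and at 4412 with R5020 (72.3%, 71.2 to 73.4), where the share over all R5020 PR regions was 10.2%. Over the vehicle PR list as a whole, the Maf1 shares were 24.4% and 68.5%. The 2 Maf1 lists differ in length, 3048 regions with vehicle and 22638 with R5020, and the part of this length in the higher R5020 share was not tested. Seen from the Maf1 lists, 50.9% of vehicle Maf1 regions and 19.3% of R5020 Maf1 regions held a retained PR site. R5020 regions at retained sites carried R5020 Maf1 in 73.9% and hormone-only regions in 7.95%, 65.9 points apart (64.8 to 67.0). With vehicle Maf1 the shares were 26.1% and 0.484%.

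Sites fell into 4 Maf1 states that differed in PR occupancy. Maf1 was listed in both treatments at 1483 sites, with vehicle only at 65, with R5020 only at 2929 and in neither at 1626. The 2929 sites with Maf1 after R5020 only had the highest median R5020 PR fold, 21.3, and 59.9% of them were in the top quintile of the R5020 PR list. Sites with Maf1 in both treatments had a median R5020 PR fold of 9.34 and were start-proximal in 53.7% of cases, and sites without Maf1 had 8.22 and 19.8%. Of the 1550 vehicle Maf1 regions with a retained site, 95.7% were met again in the R5020 Maf1 list, against 94.7% of those with a hormone-only site and 80.1% of those with no PR region.

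**Figure D4:**
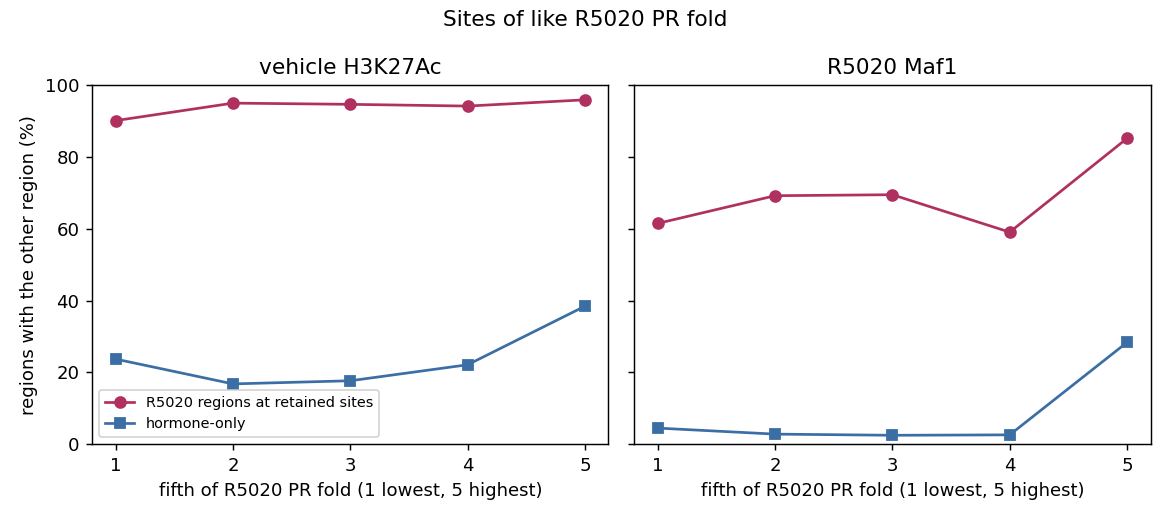
Percentage of retained and hormone-only PR sites with vehicle H3K27Ac and with R5020 Maf1, by quintile of the R5020 PR fold (1 lowest, 5 highest), as points joined by lines. In each quintile the retained sites lie above the hormone-only sites, for H3K27Ac at 90.1% to 95.9% against 16.8% to 38.4%.

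The gap to hormone-only sites was present at every level of PR occupancy, as the plot of shares by R5020 fold shows. From the lowest to the highest quintile of R5020 folds, vehicle H3K27Ac was at 90.1%, 94.9%, 94.6%, 94.1% and 95.9% of regions at retained sites. In the same order it was at 23.7%, 16.8%, 17.7%, 22.1% and 38.4% of hormone-only regions. R5020 Maf1 was at 61.5%, 69.2%, 69.4%, 59.0% and 85.1% of regions at retained sites. The corresponding shares of hormone-only regions were 4.50%, 2.82%, 2.49%, 2.61% and 28.4%. The gap shrank among the strongest R5020 regions alone: when the R5020 list was shortened to its top 6662 regions, the length of the vehicle list, 1392 sites were retained, and the differences were 36.1 points for vehicle H3K27Ac, 5.52 for R5020 Maf1 and 5.33 for start sites.

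Both marks were commoner at start-proximal than at distal retained sites. R5020 Maf1 was at 85.4% of proximal and 63.8% of distal sites, a difference of 21.6 points (19.5 to 23.8), and vehicle Maf1 at 34.5% and 19.4%. Vehicle H3K27Ac was at 98.4% and 88.1%. Among distal sites R5020 Maf1 depended on PR occupancy: it was at 78.7% of those in the top quintile of R5020 folds (76.9 to 80.4) and at 40.8% to 45.8% in the lower 4 quintiles. Among proximal sites it ranged from 76.7% to 90.1% over the quintiles.

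POLR3G was the only polymerase III protein listed at most retained sites. POLR3G regions lay at 66.7% of sites with vehicle and 58.3% with R5020, where 11.1% and 9.73% of all R5020 PR regions had one. Its paralog POLR3GL was at 11 sites with vehicle (0.180%, all R5020 PR regions 0.0826%) and 10 with R5020 (0.164%, all 0.0676%). The catalytic subunit POLR3A was at 37 sites with vehicle (0.606%, all 0.143%) and 34 with R5020 (0.557%, all 0.127%). POLR3C was at 108 sites (1.77%, all 0.177%) and 118 sites (1.93%, all 0.194%). Against the whole vehicle PR list, from which the sites come, the POLR3A shares were lower (1.16% and 1.04% of all 6662 regions), and POLR3C was at 1.94% and 2.06% of that list. POLR3G was at 64.4% of that list with vehicle and 55.9% with R5020. The POLR3G lists hold 58423 and 46874 regions and the POLR3A lists 688 and 1019, so these antibodies differ in list length as well. They also come from different sets of libraries, so antibody and set cannot be told apart between them. POLR3G also moved with start sites, at 87.5% of proximal and 54.1% of distal sites with vehicle.

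The TFIIIB subunit Brf1 was at 40 retained sites with vehicle (0.655%, all R5020 PR regions 0.105%) and at 213 with R5020 (3.49%, all 0.288%), where 0.781% and 3.86% of all vehicle PR regions had one. Of the 40 vehicle sites, 39 also had Brf1 with R5020, and 174 sites had it with R5020 only. The Brf1 lists hold 370 and 1157 regions, and the part of this difference was not tested. R5020 Maf1 was at 204 of the 213 sites (95.8%), and POLR3A was at 31 of them (14.6%). Brf1 was found at 4.62% of retained sites with R5020 Maf1 (4.04 to 5.28) and at 0.532% of those without (0.280 to 1.01). Brf1 did not follow start sites, with 3.15% of proximal and 3.55% of distal sites (difference interval -1.32 to 0.596).

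Retained sites at genes that polymerase III transcribes were counted within 200 bp of the gene. Of 422 tRNA genes, 9 had one (2.13%), as did 2 of 13 other polymerase III genes (15.4%). These shares were not compared with other PR regions and are a description. All 9 sites at tRNA genes had POLR3A, Brf1 and H3K27Ac in both treatments. Maf1 was listed at all 9 with R5020 and at 4 with vehicle. The R5020 fold at these sites ranged from 3.25 to 44.4. The highest was over TRD-GTC2-10, an aspartate tRNA gene, at chr12:124939534-124939723 with a vehicle fold of 3.56 and an R5020 fold of 44.4, and its PR summits were 890 bp apart. At the promoter of POLG, the mitochondrial DNA polymerase gene, a site beside an arginine tRNA gene had folds of 3.50 and 29.7. At TRT-CGT4-1, a threonine tRNA gene, they were 3.91 and 3.25. The signal recognition particle RNA genes RN7SL1 (3.72 and 4.97) and RN7SL2 (2.98 and 33.0) also had a retained site with POLR3A and Brf1. In all, 41 retained sites had POLR3A in either treatment, of which 9 were within 200 bp of a tRNA gene, 2 at RN7SL1 and RN7SL2 and 5 start-proximal. The rest included a group in or near 45S ribosomal RNA genes, between positions 8207571 and 8446602 of chromosome 21. Another site, with POLR3A in both treatments, was 37 bp from the U6 small nuclear RNA gene RNU6-1, which was outside the gene lists used here.

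**Figure D5:**
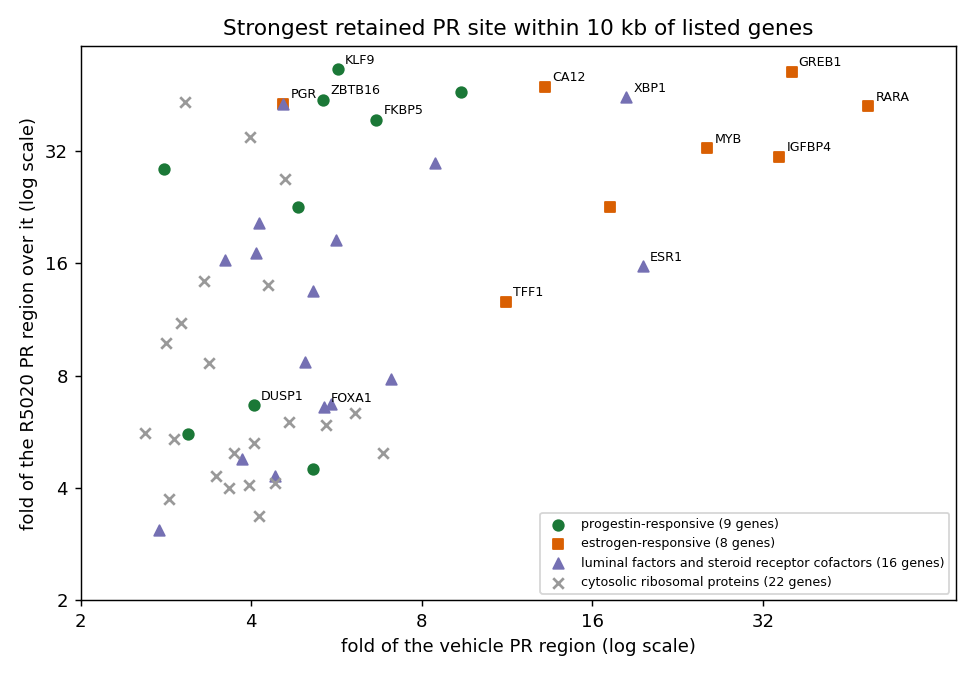
Vehicle and R5020 PR folds (log axes) of the retained site of highest vehicle −log10 q within 10 kb of each gene, for 4 of the gene lists (PGR is in 2 of them). Estrogen-responsive genes have the highest median vehicle fold, 21.4, and progestin-responsive genes combine a median vehicle fold of 5.13 with a median R5020 fold of 28.5.

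Genes with a retained site within 10 kb made up 22.2% of 19970 protein-coding genes, and 17.6% had one within 1 kb. Of 20 luminal factors and steroid receptor cofactors 16 had one, as did 15 of 17 immediate-early genes, 8 of 12 estrogen-responsive genes, 13 of 22 chaperones and co-chaperones, 9 of 22 progestin-responsive genes and 9 of 19 splicing factors. Of 29 genes of the polymerase III machinery 9 had one, of 13 other polymerase III genes 3, and of 73 cytosolic ribosomal protein genes 22. The other polymerase III genes are not protein-coding, so the 22.2% is no like background for them. Genes without a retained site were seldom without PR: hormone-only regions lay within 10 kb of 90.3% of protein-coding genes and of all 22 progestin-responsive genes. The lists were chosen with earlier results of these data known, and their counts are a description. The values below are those of the retained site of highest vehicle −log10 q of each gene.

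Estrogen-responsive genes had the highest median vehicle fold among the lists, with a median vehicle fold of 21.4 over 8 sites (4.56 to 49.1). Choosing a site in the same way for every protein-coding gene gave a median of 4.04 with vehicle and 8.87 with R5020 over 3211 sites, and the choice favours genes with several sites. GREB1, a coactivator gene induced by estrogen, had 7 retained sites, and the strongest had a vehicle fold of 35.9, an R5020 fold of 52.1 and summits 13 bp apart. At IGFBP4, which encodes a binding protein of insulin-like growth factors, the folds were 34.2 and 30.9. At the transcription factor gene MYB they were 25.5 and 32.5, with summits 3 bp apart. TFF1, the secreted trefoil factor, had 11.3 and 12.6 with summits 3 bp apart, and the gene of PR itself, PGR, had 4.56 and 42.9 in a site 21 bp from its start. The median summit distance over the 8 sites was 21 bp, and 5 of the 8 had summits within 100 bp.

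Progestin-responsive genes showed another arrangement, with a lower median vehicle fold than the estrogen-responsive list and larger distances between summits. The median folds over 9 sites were 5.13 with vehicle (2.81 to 9.39) and 28.5 with R5020 (4.49 to 53.1), and the median summit distance was 432 bp. KLF9, a Krüppel-like repressor gene, had 5.69 and 53.1 with summits 937 bp apart. FKBP5, the co-chaperone that dampens steroid receptor signalling, had 6.65 and 38.8 with summits 820 bp apart. NFKBIA, the inhibitor of NF-kappa-B, had 9.39 and 46.0 with summits 40 bp apart, and the zinc finger gene ZBTB16 had 5.37 and 43.9. CDKN1A, the cell cycle inhibitor p21, had 2.81 and 28.5 in a site 113 bp from its start. The list was not uniform: the phosphatase gene DUSP1 (4.04 and 6.67, 4 bp from its start) and the clock gene PER1 (5.13 and 4.49) had R5020 folds below the median of all retained sites and vehicle folds near or above it.

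Some luminal identity genes had several retained sites, and the number of sites per gene was not compared with other genes. GATA3, the luminal zinc finger factor, had 8 within 10 kb, of which the strongest had folds of 5.65 and 18.5, and the pioneer factor gene FOXA1 had 5 (5.37 and 6.59). At XBP1, a regulator of the secretory stress response, the folds were 18.4 and 44.7. At ESR1, the estrogen receptor alpha gene, they were 19.6 and 15.7, and both H3K27Ac and Maf1 were listed there with vehicle only. Among immediate-early genes IER3 had 44.4 and 45.4, ZFP36, which encodes an mRNA decay factor, 8.18 and 15.2, and the AP-1 gene JUND 5.36 and 34.0.

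Retained sites also lay at the genes of the chaperones that hold PR. The co-chaperone gene FKBP4 had a vehicle fold of 21.1 and an R5020 fold of 19.0, with summits 2 bp apart. At HSP90AB1 the folds were 5.04 and 4.25, 9 bp from the start, and at HSP90AA1 3.68 and 2.89. PTGES3, the p23 co-chaperone, had 3.27 and 7.44, and the HSP40 gene DNAJB1 had 3.64 and 30.5. Ribosomal protein genes (median folds 3.84 and 5.76 over 22 sites) and polymerase III machinery genes (3.49 and 6.29 over 9 sites) lay below the medians of all protein-coding genes chosen in the same way, 4.04 and 8.87.

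Some retained sites lay close together, and 2163 (35.4%) had another within 10 kb, a share that was not compared with other PR regions. Some neighbours lay under the same R5020 region, since 272 R5020 regions overlapped 2 or more vehicle regions. The longest run had 15 sites over the non-coding genes DANT1 and DANT2 at chrX:115844052-115888465, all of low fold (1.87 to 4.99 with vehicle and 2.41 to 5.42 with R5020). Vehicle H3K27Ac was at all 15 and R5020 Maf1 at all 15. A run of 14 at chr11:101325799-101360569 reached 25.4 with vehicle and 39.8 with R5020. A run of 11 at chr21:8991414-9011213 had no H3K27Ac at any site and Maf1 at all 11 in both treatments. Other runs lay over TNRC18 on chromosome 7 (11 sites), the nuclear non-coding RNA gene MALAT1 (9), a histone gene cluster on chromosome 1 (8, all with Maf1 in both treatments), SBNO2 (8), KRT19 (7) and TOB1 (7). Neighbouring sites are not independent, and the intervals above do not allow for that.

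The 559 lost sites had a median vehicle fold of 3.44 and carried fewer acetylated and Maf1-bound members. Vehicle H3K27Ac was at 61.5% of them, 30.6 points below retained sites (26.6 to 34.8), and R5020 Maf1 at 26.7%, 45.6 points below (41.7 to 49.3). Vehicle Maf1 was at 14.1%, 11.2 points below (7.92 to 14.1), and 23.2% were within 1 kb of a start, 15.0 points below (11.0 to 18.6). The order was the other way for POLR3A, POLR3C and Brf1. Vehicle POLR3A was at 40 lost sites (7.16%), a retained minus lost difference of -6.55 points (-9.00 to -4.68). Vehicle POLR3C was at 3.76% (difference -1.99, -3.93 to -0.650) and R5020 Brf1 at 7.87% (difference -4.38, -6.95 to -2.36). POLR3G went with H3K27Ac and Maf1: with vehicle it was at 39.0% of lost sites, 27.7 points below retained sites (23.4 to 31.8). For vehicle POLR3GL, at 1 lost site, the interval of the difference included 0. The H3K27Ac difference was 36.8, 24.6, 28.9, 41.1 and 15.4 points from the lowest to the highest quintile of vehicle folds. For vehicle Maf1 the interval included 0 in 3 of the 5 quintiles. These differences depended on the settings, which also changed the sites counted as lost. The lost class held 4559 vehicle regions at a mutual overlap of 50% and 5270 with the shortened R5020 list. Most of these were retained under the 1 bp rule with the full lists, so the values do not describe the 559 sites. At a mutual overlap of 50% the vehicle H3K27Ac difference was 1.28 points, and those of R5020 Maf1 and starts changed sign, to -5.61 and -7.25. The start difference was also negative at a fold of at least 5 (-4.85) and with the shortened R5020 list (-25.1), where vehicle Maf1 was at -2.45 and vehicle H3K27Ac at 6.23.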

How the data were processed

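ChIP-seq peak lists of T47D cells were used as deposited, 1 per antibody and treatment. Per the submitters' processing notes, the authors' tools were cutadapt, Bowtie2 and MACS2 with build hg38. Versions, caller settings, the control and how the 3 replicates were combined are not given in the sources used here. The deposited lists give each region's fold over background, a ratio, and the −log10 of its q-value, both computed by the authors, with a lowest −log10 q of 1.30 over the PR lists. They hold no read counts, so depth is unknown.

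Overlaps of at least 1 bp on chromosomes 1 to 22 and X, summit distances, shares and intervals were computed with Python 3.11.15, numpy 2.4.6, pandas 2.3.3 and scipy 1.17.1, and the code was tested on simulated regions. The R5020 fold at a site is that of the overlapping region of highest −log10 q, and the summit distance uses the nearest overlapping summit. Groups follow the sample titles. Start sites, gene spans and promoters are from RefSeq tables of GRCh38.p14, whose chromosome names and coordinates are those of hg38, and the start table of chromosome 8 was not used here. Motifs were matched on both strands.

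The members and the gene lists were chosen with earlier results of these data known. Named sites were the 12 of highest vehicle −log10 q, the 5 of highest R5020 −log10 q (ties by fold, then position), the 5 highest without H3K27Ac (1 of them not reported here), those within 200 bp of tRNA or other polymerase III genes, and those at the edge of the rule. Runs and promoter examples were chosen after their values were seen. Alternatives were the overlap, the −log10 q, the fold, the list length, the chromosomes, the distances and the promoter window.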

Additional observations from a re-analysis of the deposited data

Results flagged for a closer look

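Outside chromosomes 1 to 22 and X the vehicle PR list held 69 further regions, which no comparison above uses. Of these, 26 shared at least 1 bp with one of the 464 R5020 PR regions there.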

How the results depend on the processing

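Of 104 alternative values for the main results, 29 stayed within their interval, 71 moved and 4 changed sign. When 50% of both PR regions had to be shared (2103 sites), the retained share was 31.6%, vehicle and R5020 H3K27Ac were at 90.5% and 85.9%, vehicle and R5020 Maf1 at 32.7% and 64.6%, R5020 POLR3G at 53.2%, starts at 31.9% and gene ends at 31.7%. Differences from hormone-only sites were then 66.7 (vehicle H3K27Ac), 55.0 (R5020 Maf1) and 22.8 points (starts), and from lost sites 1.28, -5.61 and -7.25, with R5020 H3K27Ac at -0.849. The lost class then held 4559 regions, most of them retained under the 1 bp rule. With −log10 q of at least 5 (4127 sites), summits were within 100 bp at 55.1%, Maf1 was at 28.1% and 73.6%, POLR3A at 0.388%, Brf1 at 4.14%, POLR3G at 56.1%, starts at 30.9% and gene ends at 30.4%, the start difference from hormone-only sites was 22.3, and those from lost sites were 25.4 (vehicle H3K27Ac) and 6.30 (starts). With fold of at least 5 (1633 sites), 89.8% were retained, summits were within 100 bp at 60.3%, Maf1 was at 35.6% and 76.5%, POLR3A at 0.367%, Brf1 at 5.33%, POLR3G at 49.97%, starts at 16.8% and gene ends at 16.0%. The differences were 66.7 (vehicle H3K27Ac) and 8.65 (starts) from hormone-only sites and 16.3, 49.5 (R5020 Maf1) and -4.85 (starts) from lost sites. With R5020 regions as many as vehicle regions (1392 sites), 20.9% were retained, H3K27Ac was at 94.5% and 95.3%, Maf1 at 22.5% and 94.8%, POLR3A at 0.359%, Brf1 at 5.82%, POLR3G at 61.8%, starts at 17.0% and gene ends at 14.6%. The differences were 36.1, 5.52 and 5.33 from hormone-only sites and 6.23, 33.2 and -25.1 from lost sites, in the order H3K27Ac, R5020 Maf1 and starts, with vehicle Maf1 at -2.45. The lost class here held 5270 regions, most of them retained with the full R5020 list. With the vehicle PR summit inside the other region, H3K27Ac was at 81.7% and 76.3%, Maf1 at 21.8% and 66.7%, POLR3A at 0.360%, Brf1 at 2.69% and POLR3G at 51.0%. With −log10 q of at least 5 in the other list, these were 90.8% and 86.8%, 17.5% and 62.5%, 2.38% (Brf1) and 35.3% (POLR3G). Within 5 kb, starts were at 47.2% and gene ends at 47.4%. Within 50 kb, 15 polymerase III machinery, 5 other polymerase III and 39 ribosomal protein genes had a retained site. In the 250 bases before the start, AGAACA was in 4.86% and GGGCGG in 78.7% of promoters. The causes were not tested. The lists hold no depth, which limits precision in an unknown way. No paired analysis was possible because each list stands for 3 replicates and carries no replicate number, so no library could be left out, the 4 with conflicting tags included.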

Other observations

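MicroRNA hairpins were over a retained PR site in 25 of 1558 cases, among them MIR92B, MIR3615 and MIR762. This count was not compared with other PR regions and is a description only. Of the 6103 sites, 60.6% overlapped the span of a protein-coding gene, against 40.3% of the lost sites, a difference of 20.4 points (16.1 to 24.5). The retained share was close to that of PR regions at large: 58.9% of all vehicle, 57.6% of all R5020 and 57.4% of hormone-only regions.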
